A study of Homo sapiens with 12 samples.

Results

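The genes described here encode the hnRNP and SR splicing factors, together with 2 cyclins and 1 kinase that act on them, in MDA-MB-231 cells treated with the cytokine TNFα and the plant flavone apigenin. They were taken by a rule on gene symbols, and the families were chosen with earlier results of these data known. The rule took rows of the deposited table with a single gene symbol that begins with HNRNP or is SRSF and a number. It also took TRA2A, TRA2B, CLK4, CCNL1 and CCNL2, and left out pseudogene and antisense rows. This gave 35 genes: 19 hnRNP genes, 13 SR and TRA2 genes and 3 genes for CLK4 and the L-type cyclins. CCNL1 had 2 rows and was read from the row with the higher mean. Another 7 genes of these families, CLK1 and HNRNPK among them, were represented only by rows that carry several gene symbols and were not analysed here. Of the 35 genes, 34 passed the filter on low values and were among the 20572 genes tested in the whole table. SRSF12 read 1.25 to 1.67 on the 12 arrays and was not tested.

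MDA-MB-231 is an established line of triple-negative breast cancer cells from a pleural effusion. There were 4 groups of 3 arrays each. The control group was untreated, the TNFα group received the cytokine at 40 ng/ml, the apigenin group received the flavone at 40 µM, and the combined group received the 2 agents together at those doses. Treatment lasted 24 h. The vehicle of the controls, if any, was not stated in what was used here. Samples of a group carry numbers without being called separate cultures, and the p-values therefore rest on a spread between samples that may be technical.

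Before an mRNA leaves the nucleus its introns are removed by the spliceosome, and splicing factors that bind the transcript decide which exons are kept. SR proteins carry a domain rich in serine-arginine pairs and mostly promote the use of exons they bind, while hnRNP proteins coat the nascent transcript and often oppose them. CLK kinases phosphorylate the SR domain, and cyclins L1 and L2 are partners of the CDK11 kinases and carry such a domain themselves. Many genes of these families contain exons or introns whose inclusion marks their own mRNA for decay or retention in the nucleus. A whole-transcript array reads probes along the gene as 1 value, so its log2 value does not tell these forms apart. The protein hnRNPA2, from HNRNPA2B1, has been described as a direct binding target of apigenin, which is background to the interest in that gene here.

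All values are deposited log2 expression values, 1 per probe set and array, and the array medians ran from 2.09 to 2.16. Of 23 markers looked up, 20 had a row. VIM read 7.93 to 8.30, EGFR 7.17 to 8.71 and CD44 7.29 to 8.32 on the 12 arrays, and CDH1 (1.81 to 2.1), ESR1 (1.84 to 2.44) and the leukocyte marker PTPRC (1.28 to 1.58) read near the filter level of 1.60 to 1.64. EPCAM, an epithelial marker, read 4.58 to 5.24, and KRT18, listed as present in this line, 2.93 to 4.04. The median of 173 small nucleolar and Cajal body RNA genes differed between arrays. Control arrays had medians of 5.33 to 5.69 and apigenin arrays 5.77 to 6.34; the TNFα arrays spread from 4.75 to 5.96, and the combined treatment gave 5.85 to 5.90. It was therefore higher on all 3 apigenin arrays than on all control arrays. The fit that takes it as a covariate is given with the counts below.

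Apigenin changed splicing factor genes in both directions. In the fit without a replicate block, TNFα alone changed none beyond the threshold, which was a limma adjusted p below 0.05 over all 20572 genes. With the replicate number of the labels as a block, TNFα called 2 splicing factor genes, HNRNPA1 and CCNL2, beside 3.07% of all genes. In that fit apigenin against control called 18 genes, both agents against TNFα 16, and both agents against control 21. Of all genes 17%, 16.1% and 18.6% were then called. The next counts are of the fit without that block. Against control, apigenin called 13 of the 34 tested genes, 9 higher and 4 lower, beside 11.4% of all genes tested (4.55% higher and 6.83% lower). In cells that also received TNFα, apigenin called 8 genes, 4 higher and 4 lower, beside 10.1% of all genes (4.21% higher and 5.92% lower). With both agents against control, 15 genes were called, 13 higher and 2 lower, beside 12.5% of all genes (7.15% higher and 5.37% lower). Calls were more frequent among genes that read high: of the 7039 genes with a mean log2 value of 4 or more, 25.7%, 22.1% and 27.9% were called in these comparisons. Of the 30 splicing factors at that level, 43.3%, 23.3% and 50% were called; this level was chosen with the values in view. In TNFα-treated cells the share was therefore close to that of other genes of such levels, and no test of the shares was made.

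The count of calls moved with single arrays. For apigenin against control it was 8 without control replicate 1 (4 higher and 4 lower), beside 8.53% of all genes in that fit. For both agents against TNFα it was 5 without TNFα replicate 1, 4 without replicate 1 of the combined treatment and 5 without its replicate 3. Of all genes, 6.21%, 5.79% and 7.39% were called in these fits. For both agents against control the count was 9 without replicate 3 of the combined treatment, beside 8.93% of all genes. Without the 4 arrays numbered 3 the counts of the 3 comparisons were 10, 6 and 11, beside 7.32%, 6.26% and 9.11% of all genes. In each of these fits the share of all genes called was thus also lower than with all 12 arrays. With the small nucleolar RNA median as a covariate, chosen with results of these data known, the 3 counts were 10, 4 and 14, and only 1 gene was then called lower in each. Of all genes 6.27%, 5.14% and 11.1% were called in that fit. Lower were 611, 465 and 803 of them, beside 1406, 1218 and 1105 without the covariate. Apigenin and control arrays did not overlap in this median, so the fit cannot tell the covariate from the treatment there. Quantile normalisation changed the split against control with both agents from 13 higher and 2 lower to 10 higher and 6 lower. Over all genes the same split went from 1471 higher and 1105 lower to 1300 higher and 2049 lower.

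**Figure D1:**
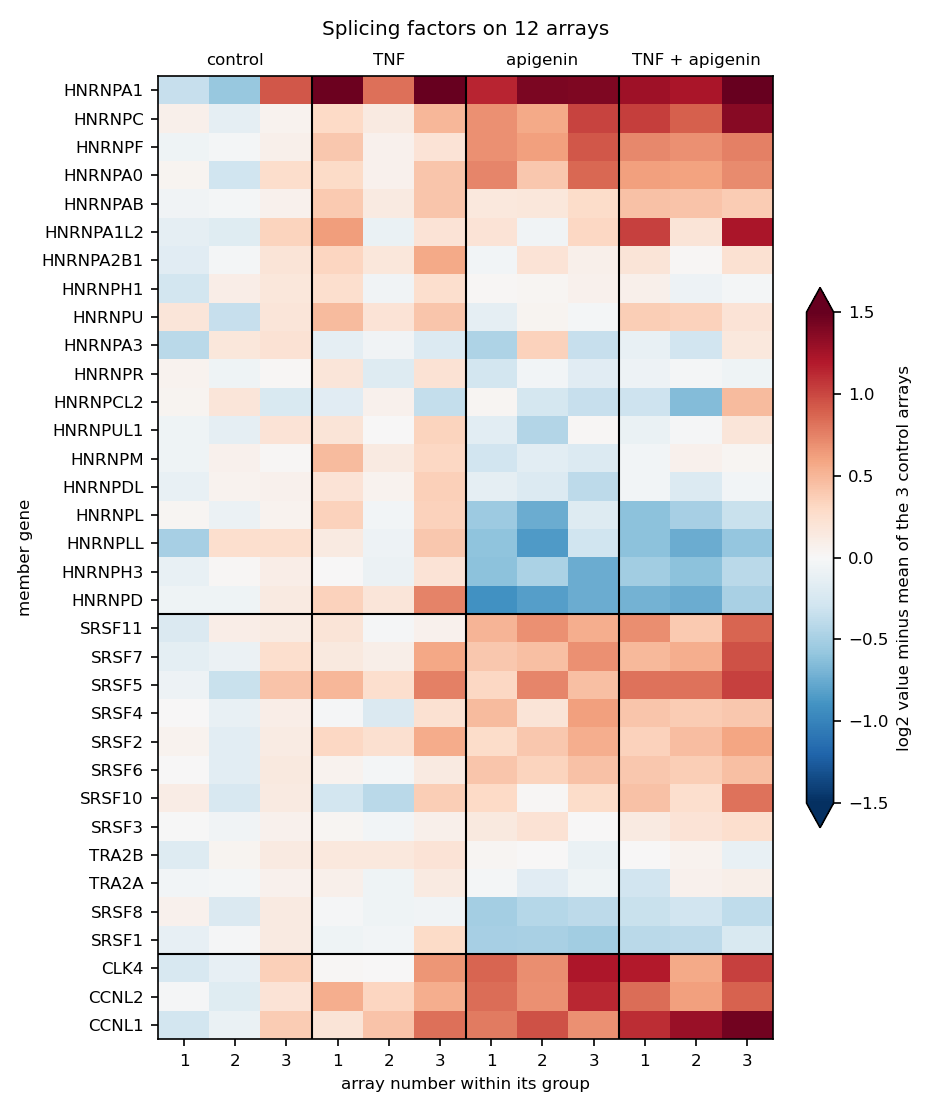
Log2 value of each of the 34 tested splicing factors (rows, grouped as hnRNP, SR and TRA2, and CLK4 and cyclins L, and ordered by the apigenin difference) on each of the 12 arrays (columns), minus the mean of the 3 control arrays; colours are cut at 1.5. The 6 arrays with apigenin are red for HNRNPC, HNRNPF, SRSF11, CLK4, CCNL1 and CCNL2 and blue for HNRNPD, HNRNPH3, HNRNPL, SRSF1 and SRSF8, while HNRNPA1 is blue on control replicates 1 and 2 and red on control replicate 3 and all other arrays.

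Among the A and B type hnRNPs, which package nascent RNA and commonly promote exon skipping, HNRNPA2B1 itself was not called in any comparison. It read 7.02, 7.16 and 7.38 in control, 7.51, 7.36 and 7.76 with TNFα, 7.15, 7.39 and 7.27 with apigenin, and 7.38, 7.21 and 7.42 with both. The 4 groups overlapped, and the TNFα arrays were the highest by mean. Apigenin differed from control by 0.08 (SE 0.14, adjusted p = 0.807), both agents differed from TNFα by -0.20 (SE 0.14, adjusted p = 0.453), and TNFα differed from control by 0.35 (SE 0.14, adjusted p = 0.338). HNRNPA0, a small intronless relative, went from 6.39 ± 0.28 (mean ± SD, n = 3) in control to 7.05 ± 0.24 with apigenin, a rise of 0.67 (SE 0.16, adjusted p = 0.0154). With both agents it rose by 0.65 over control (SE 0.16, adjusted p = 0.0164), and it differed from TNFα by 0.39 (adjusted p = 0.171). HNRNPAB was called only with both agents against control (8.26 ± 0.06 to 8.68 ± 0.03, difference 0.42, SE 0.11, adjusted p = 0.0237). The HNRNPA0 call with apigenin was lost without control replicate 2 or apigenin replicate 1 or 3 (adjusted p up to 0.066), the one with both agents without control replicate 2 or replicate 3 of the combined treatment (up to 0.0708), and the HNRNPAB call without control replicate 1 or 2 or any 1 array of the combined treatment (up to 0.0795). The HNRNPAB call was also lost under quantile normalisation and without the 4 arrays numbered 3.

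HNRNPA1, the best studied of these proteins and an antagonist of SRSF1 at many exons, had the largest difference of the 34 genes between apigenin and control. Its row read 4.70, 4.48 and 5.98 in control, 6.52, 5.88 and 6.56 with TNFα, 6.19, 6.46 and 6.45 with apigenin, and 6.32, 6.27 and 6.95 with both. Control replicate 3 stood well above the other 2 control arrays and overlapped the TNFα group. The difference was 1.31 with apigenin (SE 0.32, adjusted p = 0.0174), 1.46 with both (SE 0.32, adjusted p = 0.00867) and 1.27 with TNFα (SE 0.32, adjusted p = 0.0961, not called). Without control replicate 3 the TNFα difference was 1.73 and was called (adjusted p = 0.00274), and without the 4 arrays numbered 3 it was 1.61 (adjusted p = 0.0146). With the replicate number as a block it was 1.27 and was called (adjusted p = 0.0135). The apigenin call was lost without control replicate 1 or 2 or apigenin replicate 2 or 3, with adjusted p up to 0.0757.

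The direction of HNRNPA1 is uncertain, since processed copies of this gene share most of its mRNA sequence and their rows moved the other way. The row of the copy HNRNPA1P10 read 10.57 ± 0.13 in control and 9.46 with apigenin, and fell (log2 difference -1.11, SE 0.14, adjusted p = 2.16e-04). It also fell with apigenin in TNFα-treated cells (-1.11, adjusted p = 2.68e-04). HNRNPA1P33 fell in these comparisons as well (-1.58 and -1.52, SE 0.27 in each). Which transcripts each row reads was not tested. Of the members of this type that read low, HNRNPA3 (1.68 to 2.49 on the 12 arrays) and HNRNPA1L2 (1.75 to 3.16), itself a copy of HNRNPA1, were not called in any comparison. HNRNPCL2, a gene like HNRNPC, read 2.27 to 3.39 and was not called either.

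HNRNPC, which binds uridine-rich tracts in introns and keeps cryptic exons out of mRNA, rose with apigenin whether or not TNFα was present. It read 5.39, 5.18 and 5.36 in control, 5.61, 5.44 and 5.81 with TNFα, 6.0, 5.88 and 6.32 with apigenin, and 6.35, 6.21 and 6.67 with both. Every array with apigenin lay above every array without it. The rise was 0.76 without TNFα (SE 0.15, 1.69-fold, adjusted p = 0.00563) and 0.79 with it (SE 0.15, 1.73-fold, adjusted p = 0.00552). With both agents HNRNPC stood 1.10 above control (SE 0.15, 2.14-fold, adjusted p = 4.11e-04). These 3 calls were kept whichever of the 12 arrays was left out.

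HNRNPD, also known as AUF1, binds AU-rich elements and takes part in mRNA decay as well as splicing, and it fell with apigenin. It read 6.49, 6.48 and 6.68 in control, 6.89, 6.73 and 7.29 with TNFα, 5.64, 5.72 and 5.81 with apigenin, and 5.84, 5.81 and 6.06 with both. Every array with apigenin lay below every array without it. The fall was 1.78-fold without TNFα (log2 difference -0.83, SE 0.14, adjusted p = 0.00208) and 2.09-fold in TNFα-treated cells (log2 difference -1.07, SE 0.14, adjusted p = 4.66e-04). These calls, too, were kept whichever array was left out, as was the one with both agents against control (log2 difference -0.65, SE 0.14, adjusted p = 0.00881). Its closest relative HNRNPDL had the same sign without passing the threshold: -0.25 with apigenin (SE 0.12, adjusted p = 0.249) and -0.30 with apigenin in TNFα-treated cells (SE 0.12, adjusted p = 0.159).

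The F and H type hnRNPs, which bind runs of guanines, split. HNRNPF rose with apigenin, from 8.54, 8.58 and 8.69 in control to 9.30, 9.23 and 9.54 with apigenin, while the TNFα arrays read 9.02, 8.67 and 8.81 and those with both agents 9.33, 9.29 and 9.37. Every array with apigenin lay above every array without it. The rise was 0.75 without TNFα (SE 0.12, adjusted p = 0.00148) and 0.49 with TNFα (SE 0.12, adjusted p = 0.0216). The latter call was lost without TNFα replicate 2 or 3 or any 1 array of the combined treatment (adjusted p up to 0.0752), without the 4 arrays numbered 3 (0.121) and with the small nucleolar RNA covariate (0.054).

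HNRNPH3 went the opposite way to HNRNPF. It read 6.29, 6.42 and 6.50 in control, 6.41, 6.31 and 6.61 with TNFα, 5.78, 5.92 and 5.66 with apigenin, and 5.88, 5.78 and 6.0 with both, so that the arrays with and without apigenin did not overlap. The log2 difference was -0.61 without TNFα (SE 0.12, adjusted p = 0.00512) and -0.55 with it (SE 0.12, adjusted p = 0.0112). The latter was lost without replicate 2 of the combined treatment (adjusted p = 0.051), and both were lost without the 4 arrays numbered 3 and with the small nucleolar RNA covariate. With both agents against control it was -0.52 (SE 0.12, adjusted p = 0.0136), also lost without replicate 2 of the combined treatment (adjusted p = 0.0585) and with that covariate (0.0507). HNRNPH1 differed by 0.04 with apigenin (SE 0.13, adjusted p = 0.913).

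HNRNPL and its relative HNRNPLL bind CA-rich elements and regulate exons of the CD45 gene in lymphocytes. HNRNPL read 7.68, 7.56 and 7.70 in control, 7.99, 7.61 and 8.0 with TNFα, 7.11, 6.91 and 7.46 with apigenin, and 7.03, 7.15 and 7.32 with both. It fell with apigenin in TNFα-treated cells (log2 difference -0.70, SE 0.16, adjusted p = 0.0109), and differed from control by -0.49 with apigenin alone (adjusted p = 0.0596). HNRNPLL, which read 2.22 to 3.48 over the 12 arrays, also fell in TNFα-treated cells (-0.81, SE 0.20, adjusted p = 0.0223) and stood at -0.58 with apigenin alone (adjusted p = 0.0897). In TNFα-treated cells the HNRNPL call was lost without TNFα replicate 1 or replicate 1 of the combined treatment, and the HNRNPLL call without TNFα replicate 1 or 3 or replicate 1 or 2 of the combined treatment (adjusted p up to 0.0565 and 0.0919). Both were also lost with the small nucleolar RNA covariate (adjusted p = 0.105 and 0.215), and that of HNRNPLL without the 4 arrays numbered 3 (0.112). The other hnRNPs of high readings, HNRNPM, HNRNPR, HNRNPU and HNRNPUL1, were not called in any comparison. Their apigenin differences ran from -0.22 for HNRNPM to -0.05 for HNRNPU.

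**Figure D2:**
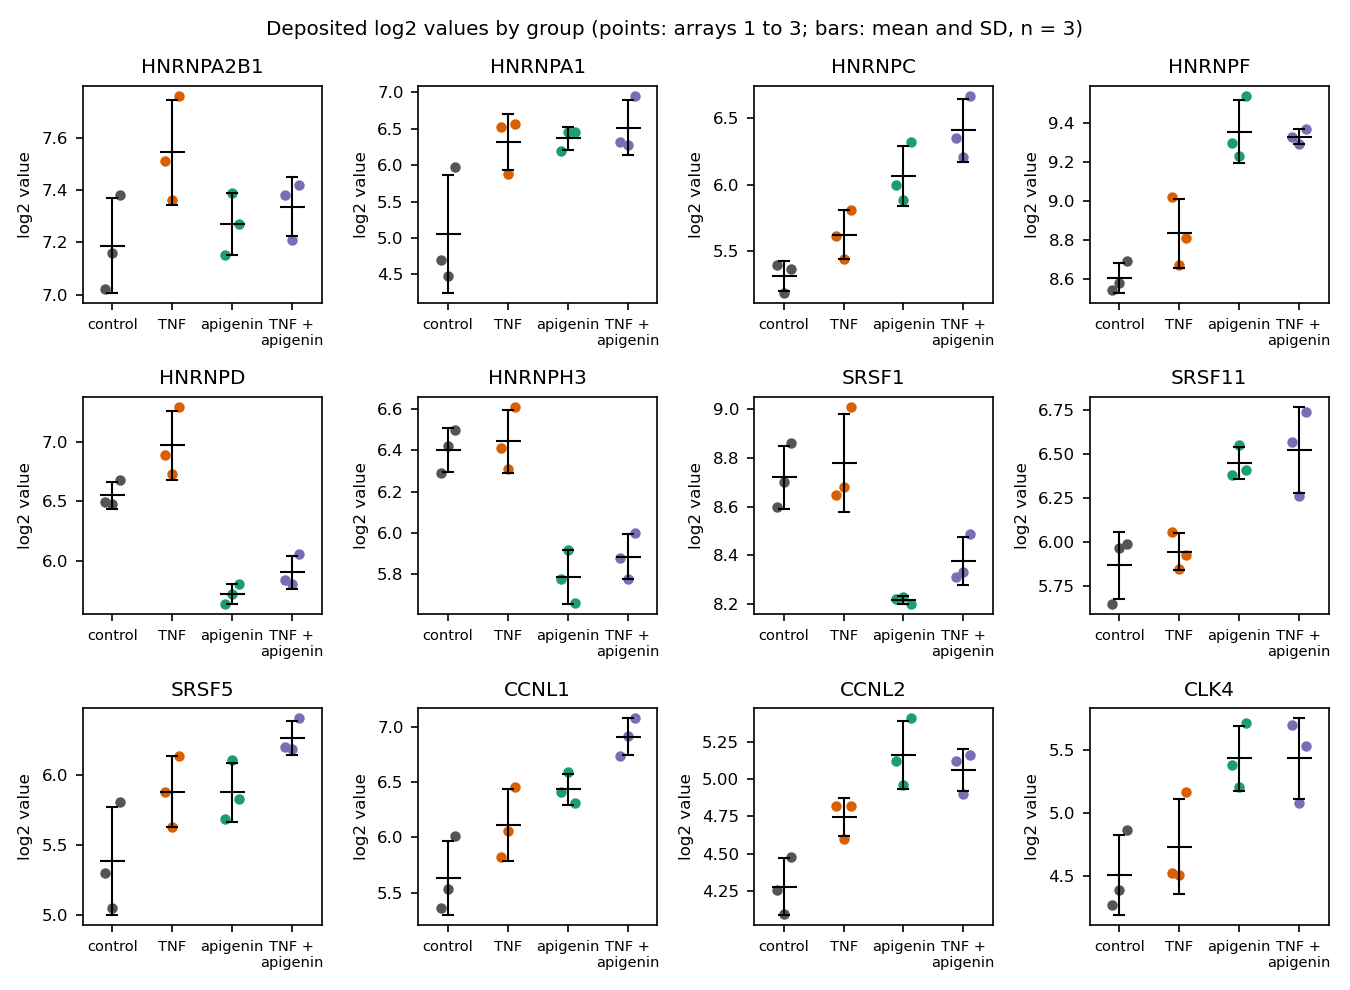
Deposited log2 values (vertical axes, scaled per gene) of 12 splicing factor genes in control, TNFα, apigenin and combined treatment; each point is 1 array, and the bars are the mean and SD of 3 arrays. HNRNPA2B1 overlaps between all groups, HNRNPC, HNRNPF and SRSF11 are higher and HNRNPD, HNRNPH3 and SRSF1 lower on every array with apigenin than on every array without it, and control replicate 3 of HNRNPA1 lies at 5.98 beside 4.70 and 4.48.

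Of the 12 SR and TRA2 genes tested, 4 were called with apigenin against control, SRSF6 and SRSF11 higher and SRSF1 and SRSF8 lower. That is 33.3%, beside 11.4% of all genes and 25.7% of those with a mean log2 value of 4 or more. SRSF1, the founding SR protein and a known oncoprotein of breast cells, read 8.60, 8.70 and 8.86 in control, 8.65, 8.68 and 9.01 with TNFα, 8.22, 8.23 and 8.20 with apigenin, and 8.31, 8.33 and 8.49 with both. The arrays with apigenin were all below those without. The log2 difference was -0.50 (SE 0.12, adjusted p = 0.0185) without TNFα, -0.40 with TNFα (SE 0.12, adjusted p = 0.0596) and -0.34 with both agents against control (SE 0.12, adjusted p = 0.101). The first of these lost its call without control replicate 3 or apigenin replicate 1 or 3 (adjusted p up to 0.0722), without the 4 arrays numbered 3 (0.0904) and with the small nucleolar RNA covariate (0.176). The other 2 were called under quantile normalisation (adjusted p = 0.0179 and 0.0205) and by limma with trend and robust settings (0.018 and 0.0375). They were also called with the replicate number as a block (adjusted p = 0.0208 and 0.0413). SRSF8, an intronless relative of SRSF2, stood at 5.11 ± 0.19 in control and 4.67 ± 0.06 with apigenin (log2 difference -0.44, SE 0.11, adjusted p = 0.0225).

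SRSF11 rose in each comparison of apigenin. It read 5.65, 5.97 and 5.99 in control, 6.06, 5.85 and 5.93 with TNFα, 6.38, 6.55 and 6.41 with apigenin, and 6.57, 6.26 and 6.74 with both, with no overlap between arrays with and without apigenin. The rise was 0.57 without TNFα (SE 0.14, adjusted p = 0.0184), 0.58 with TNFα (SE 0.14, adjusted p = 0.0197) and 0.65 with both agents against control (SE 0.14, adjusted p = 0.00787). It was lost without control replicate 1 or apigenin replicate 2 in the comparison without TNFα, without TNFα replicate 2 or 3 or replicate 1 or 3 of the combined treatment in the one with it (adjusted p up to 0.0837 and 0.0847), and in all 3 without the 4 arrays numbered 3. SRSF6, a regulator of exons in keratinocytes and breast epithelium, rose by 0.40 with apigenin (SE 0.11, adjusted p = 0.0337) and by 0.41 with both agents (SE 0.11, adjusted p = 0.0262). That call of SRSF6 with apigenin did not outlast the removal of control replicate 1 or 2 or of any 1 apigenin array (adjusted p up to 0.12), and with both agents that of control replicate 1 or 2 or of any 1 array of the combined treatment (adjusted p up to 0.102). The SRSF8 call was lost without control replicate 1 or 3 or apigenin replicate 1 or 2 (adjusted p up to 0.0886). With apigenin, SRSF6 and SRSF8 were also not called without the 4 arrays numbered 3, with the small nucleolar RNA covariate, or in a fit of the 2 groups alone.

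With both agents against control, 5 SR genes were called, all higher: SRSF5 by 0.88 (SE 0.19, adjusted p = 0.00730), SRSF7 by 0.66 (SE 0.17, adjusted p = 0.0207), SRSF11, SRSF2 by 0.46 (SE 0.13, adjusted p = 0.0345) and SRSF6. These were 41.7% of the 12 SR and TRA2 genes tested. Of all genes 12.5% were called, and 27.9% of those with a mean log2 value of 4 or more. SRSF5, which is known to change quickly with stress and insulin, read 5.30, 5.05 and 5.81 in control, 5.88, 5.63 and 6.14 with TNFα, 5.69, 6.11 and 5.83 with apigenin, and 6.2, 6.19 and 6.41 with both. Each agent alone overlapped control, with differences of 0.50 for TNFα (adjusted p = 0.326) and 0.49 for apigenin (adjusted p = 0.128), and the 2 together did not. Whether the effects add was tested by the interaction, which was -0.11 for SRSF5 (adjusted p = 0.999). The SRSF5 call was kept whichever array was left out. The call of SRSF7 was lost without control replicate 1 or 2 or replicate 3 of the combined treatment (adjusted p up to 0.0965), and that of SRSF2 without control replicate 1 or 2 or replicate 2 or 3 of the combined treatment (adjusted p up to 0.13), under quantile normalisation (0.0509) and without the 4 arrays numbered 3 (0.0874). The SRSF6 call, too, was lost in the last 2 of these settings.

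SRSF3, SRSF4, SRSF10, TRA2A and TRA2B were not called in any comparison. SRSF3, which also serves mRNA export, read 8.44 to 8.74 over the 12 arrays, and apigenin differed from control by 0.12 (SE 0.11, adjusted p = 0.583). SRSF4 (0.44, SE 0.14, adjusted p = 0.0651) and SRSF7 (0.51, SE 0.17, adjusted p = 0.0783) lay just short of the threshold with apigenin, as did SRSF2 (0.41, SE 0.13, adjusted p = 0.0621). SRSF2 was called there under quantile normalisation (adjusted p = 0.0389), by limma with trend and robust settings (0.0316) and with the replicate number as a block (0.0164). SRSF10, a factor that represses splicing when it loses phosphate in heat shock and mitosis, differed by 0.20 (SE 0.20, adjusted p = 0.651). TRA2A and TRA2B, SR-like proteins that bind GAA repeats in exons, differed by -0.09 (SE 0.12, adjusted p = 0.758) and -0.02 (SE 0.11, adjusted p = 0.960).

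CLK4, CCNL1 and CCNL2 all rose with apigenin against control and with both agents against control, and CCNL1 also rose with apigenin in TNFα-treated cells. CCNL1 read 5.36, 5.53 and 6.01 in control, 5.82, 6.06 and 6.46 with TNFα, 6.41, 6.59 and 6.31 with apigenin, and 6.74, 6.92 and 7.08 with both. Apigenin and control did not overlap, and the combined treatment lay above all other arrays. The rise was 0.81 with apigenin alone (SE 0.19, adjusted p = 0.0126), 0.80 with apigenin in TNFα-treated cells (SE 0.19, adjusted p = 0.0147) and 1.28 with both agents against control (SE 0.19, 2.43-fold, adjusted p = 5.45e-04). The last was kept whichever array was left out. With apigenin alone CCNL1 was lost without control replicate 1 or apigenin replicate 2 (adjusted p up to 0.0597), and when its 2 rows were averaged, and in TNFα-treated cells without TNFα replicate 1 or replicate 3 of the combined treatment (adjusted p up to 0.0770).

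CCNL2 read 4.26, 4.10 and 4.48 in control, 4.82, 4.60 and 4.82 with TNFα, 5.12, 4.96 and 5.41 with apigenin, and 5.12, 4.90 and 5.16 with both. Here the TNFα arrays lay above all control arrays and below all arrays with apigenin. The rise was 0.88 with apigenin (SE 0.15, adjusted p = 0.00148) and 0.78 with both (SE 0.15, adjusted p = 0.00300), both kept whichever array was left out. The TNFα difference was 0.46 (SE 0.15, adjusted p = 0.206), and apigenin added 0.32 in TNFα-treated cells (SE 0.15, adjusted p = 0.226). With the replicate number as a block the TNFα difference was called (adjusted p = 0.0304).

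CLK4, a kinase of SR proteins, read 4.27, 4.39 and 4.87 in control, 4.53, 4.51 and 5.17 with TNFα, 5.38, 5.21 and 5.72 with apigenin, and 5.70, 5.08 and 5.53 with both. Apigenin lay above control on every array, and the combined treatment overlapped TNFα. The rise was 0.93 with apigenin (SE 0.22, adjusted p = 0.0150) and 0.93 with both against control (SE 0.22, adjusted p = 0.0140), and 0.70 was not called in TNFα-treated cells (SE 0.22, adjusted p = 0.0637). The CLK4 calls were lost without control replicate 1 or 2 or apigenin replicate 3 for apigenin, and without control replicate 1 or replicate 1 or 3 of the combined treatment for both (adjusted p up to 0.0671 and 0.0697). In TNFα-treated cells CLK4 gained a call without TNFα replicate 3 (0.92, adjusted p = 0.0230), without replicate 2 of the combined treatment (0.88, adjusted p = 0.0403) and without control replicate 3 (0.70, adjusted p = 0.0466). It was also called there with the replicate number as a block (0.70, adjusted p = 0.00657) and under quantile normalisation (0.67, adjusted p = 0.0187). Leaving out the 4 arrays numbered 3 gave a call as well (0.87, adjusted p = 0.0322).

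Apigenin against control and both agents against TNFα share no arrays. In them 31 of the 34 genes had the same sign (91.2%, beside 68.5% of all genes tested). Of the 34 genes 30 had a mean log2 value of 4 or more, beside 7039 of all 20572. Same-sign shares at that level were not computed. CCNL1, HNRNPC, HNRNPF and SRSF11 were called higher in both comparisons, and HNRNPD and HNRNPH3 lower. These 6 genes were 46.2% of the 13 called without TNFα and 75% of the 8 called with it. HNRNPL and HNRNPLL were called only in the presence of TNFα, and HNRNPA0, HNRNPA1, CCNL2, CLK4, SRSF1, SRSF6 and SRSF8 only in its absence, but the difference between the 2 responses, which the interaction tests, was called for none of the 34 genes (limma, beside 0.0535% of all genes), and for none with trend and robust settings. At an unadjusted p below 0.05 it reached 2 genes, beside 4.23% of all genes: HNRNPA1 (-1.12, SE 0.46) and CCNL2 (-0.57, SE 0.21).

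**Figure D3:**
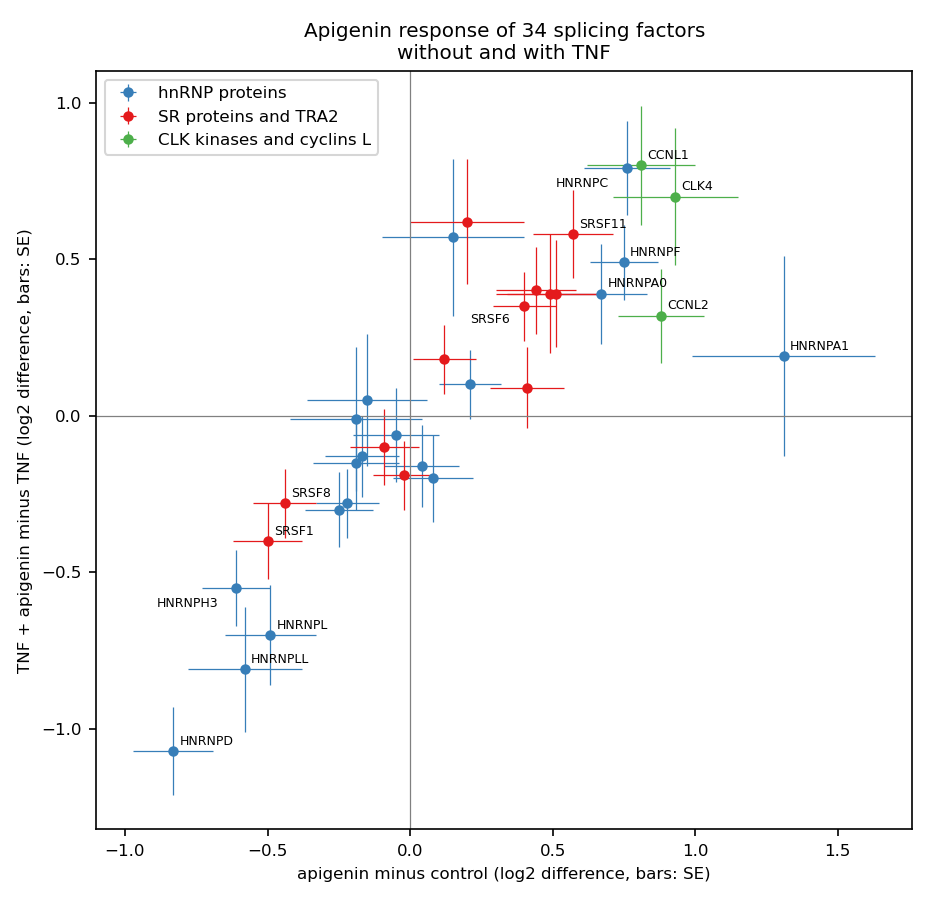
Log2 difference of each of the 34 tested genes between apigenin and control (horizontal axis) and between the combined treatment and TNFα (vertical axis); bars are standard errors of the limma fit, and genes called in either comparison are named. HNRNPD is at -0.83 and -1.07, HNRNPC at 0.76 and 0.79, and HNRNPA1 is at 1.31 and 0.19.

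Without a replicate block TNFα alone called none of the 34 genes, beside 0.997% of all genes tested, and neither did limma with trend and robust settings. At an unadjusted p below 0.05 there were 10 of the 34 genes, beside 11.6% of all genes, all of them higher: HNRNPA1, HNRNPA2B1, HNRNPAB, HNRNPD, HNRNPM, HNRNPU, SRSF2, SRSF5, CCNL1 and CCNL2. With the replicate number as a block, limma called HNRNPA1 (1.27, adjusted p = 0.0135) and CCNL2 (0.46, adjusted p = 0.0304), beside 3.07% of all genes. The TNFα and control arrays did not overlap for 8 of the 34 genes, beside 13.6% of all genes. The median difference was 0.21 over the 34 genes and 0.02 over all genes. Of the 34 differences 29 were positive and 5 negative. Quantile normalisation gave a median of 0.14, with 24 and 10. A similar shift was seen in the 116 other splicing genes described below, with a median of 0.17, 89 positive and 27 negative. Of these 116, 30 had an unadjusted p below 0.05. In apigenin-treated cells TNFα called none of the 34 genes either, beside 0.209% of all genes and again 0 with trend and robust settings. Of the 34 genes 4 had an unadjusted p below 0.05 there, beside 7.24% of all genes. The median there was 0.09, beside 0.03 over all genes and 0.10 over the 116 other splicing genes. HNRNPD, which fell with apigenin, was higher on each TNFα array than on each control array, with a difference of 0.42 (SE 0.14, adjusted p = 0.257).

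Promoters are shown for 3 of the 6 genes called in both comparisons of apigenin, those with a single start site in the RefSeq promoter table (GRCh38.p14): HNRNPD, which fell, and HNRNPC and CCNL1, which rose. Each run is the 250 bases directly before the annotated start, read 5′ to 3′ on the strand of the gene. Capitals mark every match, on either strand, to 6 short motifs: the CCAAT box in these 5 letters, the GC box as GGGCGG, an ETS factor core as CCGGAAG, the E-box as CACGTG, a piece of the cAMP response element as TGACG, and the TATA box as TATAAA.
HNRNPD, chr4:82373992-82374241, minus strand: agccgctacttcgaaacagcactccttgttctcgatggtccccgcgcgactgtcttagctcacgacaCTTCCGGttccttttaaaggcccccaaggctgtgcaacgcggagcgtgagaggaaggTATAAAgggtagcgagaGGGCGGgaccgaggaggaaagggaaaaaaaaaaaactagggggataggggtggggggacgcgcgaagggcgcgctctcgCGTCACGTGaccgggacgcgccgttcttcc
HNRNPC, chr14:21269443-21269692, minus strand: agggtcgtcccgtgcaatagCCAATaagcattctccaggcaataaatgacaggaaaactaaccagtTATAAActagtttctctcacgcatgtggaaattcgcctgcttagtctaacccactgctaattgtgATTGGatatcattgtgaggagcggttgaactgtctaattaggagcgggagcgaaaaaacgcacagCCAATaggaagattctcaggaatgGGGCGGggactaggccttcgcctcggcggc
CCNL1, chr3:157160148-157160397, minus strand: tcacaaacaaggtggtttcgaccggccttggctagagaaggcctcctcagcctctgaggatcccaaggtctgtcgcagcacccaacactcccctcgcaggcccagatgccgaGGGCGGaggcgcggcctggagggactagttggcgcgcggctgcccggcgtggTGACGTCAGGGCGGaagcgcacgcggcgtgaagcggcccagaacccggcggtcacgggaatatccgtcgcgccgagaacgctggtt

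The 3 promoters differ in these letters. HNRNPC holds 3 CCAAT matches, at 230, 119 and 54 bases before the start, and its window has 48.4% G and C. HNRNPD holds an E-box that overlaps a TGACG match, and CCNL1 holds a pair of overlapping TGACG matches on opposite strands, directly followed by a GC box. GGGCGG is the only one of the 6 motifs present in all 3. The promoter table has 45 entries for 32 of the 35 genes. TGACG was found in 48.9% of these 45 entries and in 21.2% of all 35116 entries of the table, GGGCGG in 62.2% and 42.6%, CCAAT in 44.4% and 32.0%, CACGTG in 15.6% and 6.34%, CCGGAAG in 13.3% and 8.52%, and TATAAA in 13.3% and 10.7%. TGACG thus had the widest gap of the 6, in percentage points. These are matches of letters and not binding sites, and no test was made.

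Other splicing genes, 130 in 4 lists by their known roles, were measured beside these families, and 116 were tested. With apigenin against control 24 rose and 8 fell, and with both agents against TNFα 18 rose and 9 fell (27.6% and 23.3% called, beside the 11.4% and 10.1% of all genes). Most of them read high, and of the 103 with a mean log2 value of 4 or more, 27.2% and 22.3% were called, close to the 25.7% and 22.1% of all genes at that level. SR-related proteins, which carry serine-arginine domains without being classical SR proteins, had calls in the upward direction: 10 of 25 rose and none was called lower in each of these comparisons, and 15 of 25 rose with both agents against control. Called higher were thus 40%, 40% and 60%, beside 4.55%, 4.21% and 7.15% of all genes. Of genes with a mean log2 value of 4 or more, 25.7%, 22.1% and 27.9% were called in either direction. The differences of 3, 3 and 2 of the 25 genes were negative in these comparisons, without a call. RSRP1 rose by 1.32 with apigenin (SE 0.22, adjusted p = 0.00149) and by 1.02 in TNFα-treated cells (SE 0.22, adjusted p = 0.00906). CHERP, a nuclear partner of the U2 particle, rose by 1.30 and 0.85, and SCAF4, which binds the tail of RNA polymerase II, by 1.18 and 0.89. ARGLU1 rose by 1.06 with both agents against control (SE 0.14, adjusted p = 3.00e-04).

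Of the other kinases of splicing factors 2 of 8 rose with apigenin and 1 fell. This was 37.5%, beside 11.4% of all genes and 25.7% of genes with a mean log2 value of 4 or more. CLK3, a relative of CLK4, rose by 0.96 (SE 0.15, adjusted p = 0.00119) and DYRK1A by 0.47 (SE 0.14, adjusted p = 0.0468), and SRPK1, the cytoplasmic kinase that sends SR proteins to the nucleus, fell (-0.45, SE 0.10, adjusted p = 0.0122). CDK13 rose with both agents against control (0.53, SE 0.16, adjusted p = 0.0458). Of the other sequence-specific regulators 2 of 34 rose and 5 fell with apigenin against control. That is 20.6%, beside 11.4% of all genes and 25.7% of those with a mean log2 value of 4 or more. MBNL2, a muscleblind protein, fell with apigenin (-1.53, SE 0.17, adjusted p = 8.13e-05) and in TNFα-treated cells (-1.28, SE 0.17, adjusted p = 4.26e-04), MBNL1 with apigenin (-0.65), and the paraspeckle protein SFPQ rose (0.72 and 0.62). KHDRBS1, or Sam68, and DAZAP1 fell in TNFα-treated cells (-0.69 and -0.91).

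Of 49 genes of the core spliceosome 10 rose and 2 fell with apigenin, and 6 rose and 2 fell with apigenin in TNFα-treated cells. These were 24.5% and 16.3% of the list, beside 11.4% and 10.1% of all genes. Of genes with a mean log2 value of 4 or more, 25.7% and 22.1% were called. The U2 particle gene SF3A2 rose by 0.95 and 0.67 in these comparisons, the Sm protein gene SNRPG by 0.87 and 0.99, and SF1, which binds the branch point, by 0.86 with apigenin alone. SNRPG read low, with group means of 2.29 in control, 2.28 with TNFα, 3.16 with apigenin and 3.27 with both. PRPF4 rose by 0.68 in TNFα-treated cells. The helicase gene DDX46 (-0.87 and -1.02) and SF3B3 (-0.67 and -0.57) fell. The median apigenin difference against control was 0.10 over the 34 splicing factors, 0.31 over the SR-related proteins, 0.19 over the core spliceosome, -0.09 over the other sequence-specific regulators and -0.02 over all genes tested.

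**Figure D4:**
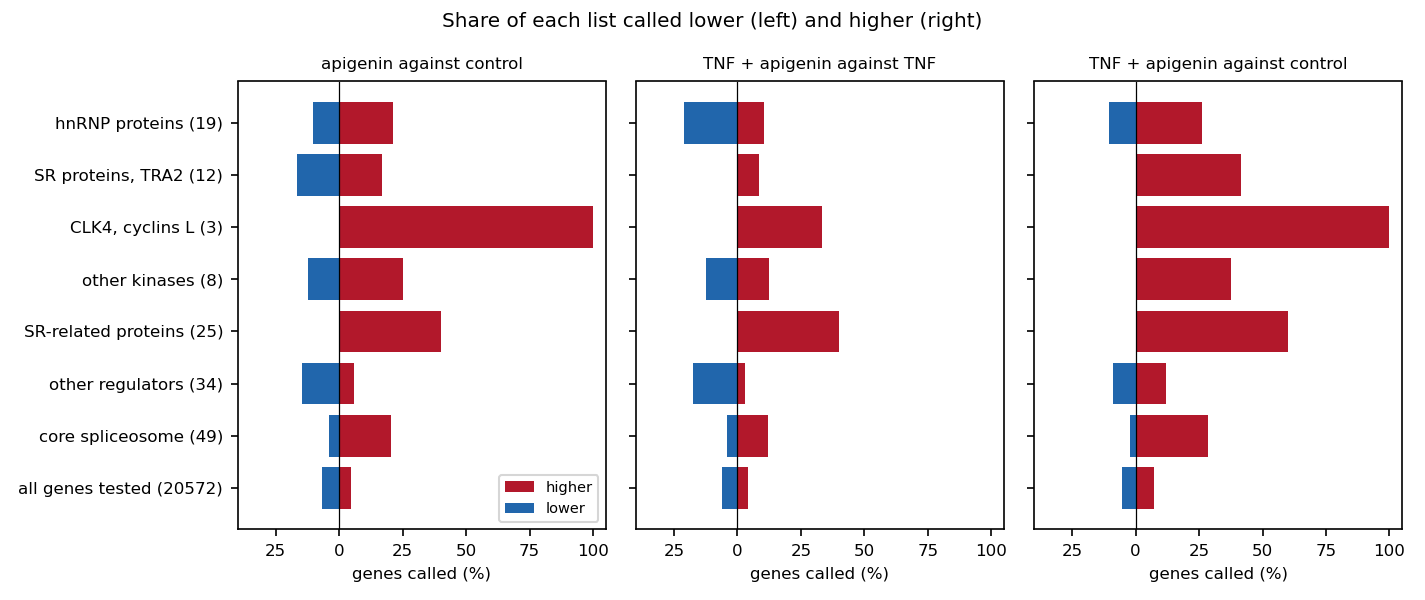
Percentage of the tested genes of each list (number in brackets) called lower (blue, to the left) and higher (red, to the right) in the 3 comparisons with apigenin. The SR-related proteins have no lower calls in the 3 panels, the hnRNP proteins have calls on both sides, and 4.55% of all genes were called higher and 6.83% lower with apigenin against control.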

How the data were processed

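Total RNA of 12 MDA-MB-231 samples was hybridised to whole-transcript arrays. The deposited values are on a log2 scale. The authors made them in Expression Console, an Affymetrix program, according to the submitters' processing notes; its version, algorithm and genome build were not given in the sources used here. The platform table gave 1 gene symbol to 23871 of 53617 probe sets, several to 1842 and none to 27904. Symbols were updated through the gene identifier. Probe sets at or above the 25th percentile of their array on at least 3 arrays were kept, and each gene was read from the row with the highest mean. One linear model with 4 group means and 8 residual degrees of freedom was fitted to 20572 genes with limma 3.58.1 in R 4.3.3. It gave 6 comparisons, each adjusted by Benjamini-Hochberg over all genes, and was tested on simulated data. Every adjusted p comes from this fit or a stated alternative. "Called" means an adjusted p below 0.05. Array values have no read depth; the number of arrays limits the precision.

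The rule for named genes took every called member, or the 10 with the largest change where more were called in a direction, a fixed panel, and up to 3 called genes per direction of each other list. Further members are named, their values seen, to account for the whole family, as are the left-out HNRNPA1 copies and HNRNPU-AS1. The members and lists were chosen with earlier results of these data known. Protein sequence features planned for the members were not analysed here.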

Additional observations from a re-analysis of the deposited data

How the results depend on the processing

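Alternatives were run for 83 differences of single members, and none of these reversed its direction with a call on either side: 1631 values kept their side of the threshold, 83 lost a call and 19 gained one. With each array left out in turn, the members called ranged from 0 to 1 for TNFα against control (0 to 1 higher), from 8 to 14 for apigenin against control (4 to 11 higher, 2 to 5 lower), from 4 to 9 for both agents against TNFα (1 to 5 higher, 2 to 4 lower) and from 9 to 17 for both agents against control (7 to 14 higher, 1 to 4 lower). Over all genes the shares called in these fits ran from 0.476% to 1.53%, from 7.46% to 11.6%, from 5.79% to 10.7% and from 8.41% to 12.8%. Without the 4 arrays numbered 3, TNFα called 1 gene (1 higher), apigenin called 1 gene lower, and both agents against TNFα called 2 lower. Of all 20572 genes TNFα called 85 there, and 873 and 738 were called lower in the other 2 comparisons. Quantile normalisation called 13 genes for both agents against TNFα (7 higher) and 6 lower for both agents against control, and trend with robust settings called 4 lower there. Of all 20572 genes quantile normalisation called 13.4% (990 genes higher) and 2049 lower in these comparisons, and trend with robust settings 1131 lower. With the small nucleolar RNA covariate 4 genes were called for both agents against TNFα (1 lower), 1 lower for apigenin against control and 1 lower for both agents against control. Of all 20572 genes that fit called 5.14% for the first of these (465 genes lower), and 611 and 803 lower for the other 2. The cause of these shifts was not tested.

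The labels give the same replicate numbers in each group. Deviations of same-numbered arrays from their group means correlated at 0.02 to 0.46 over genes, above 0.1 for 12 of 18 pairs, and each of the 12 arrays correlated best with its own number. As a replicate block, the number gave 2 calls for TNFα against control (2 higher, HNRNPA1 and CCNL2), 18 for apigenin against control (12 higher, 6 lower), 16 for both agents against TNFα (11 higher) and 21 for both agents against control (5 lower). Over all genes that fit called 3.07%, 17%, 16.1% and 18.6%.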

Other observations

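The antisense transcript HNRNPU-AS1, left out of the set by its rule, rose with apigenin from 4.16 ± 0.64 (mean ± SD, n = 3) to 5.54 (log2 difference 1.38, SE 0.25, limma adjusted p = 0.00298) and by 0.85 with apigenin in TNFα-treated cells (SE 0.25, adjusted p = 0.0499). HNRNPU, on the other strand, differed by -0.05 and -0.06 in these comparisons (adjusted p = 0.909 and 0.881). The row of CCNL1 that was not used read 1.34 to 2.31 over the 12 arrays.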
